A study of Drosophila melanogaster with 6 samples.

Results

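The Jonah genes of Drosophila melanogaster are a family of digestive serine protease genes. The 10 described here are Jon99Ci, Jon99Cii, Jon99Ciii, Jon99Fi, Jon99Fii, Jon65Aiii, Jon65Aiv, Jon25Biii, Jon66Ci and Jon66Cii, of 16 Jonah genes and 17612 genes in all in the count table. They were found by matching the table's gene coordinates on dm6 to RefSeq symbols, and all 10 matched. The list was chosen by name with the fold changes of Isha RIP over input in these same libraries in view, in which Jon99Cii and Jon99Fi stood among the lowest values. The values of the 10 genes are therefore a description, with no test, and nothing is supported with them.

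Jonah proteins are secreted proteases of the chymotrypsin fold, made as inactive precursors and cut to their active form. They are made in the midgut, where they digest dietary protein in the larva and the adult, and their transcripts are messages of the differentiated gut epithelium. In the embryo the midgut forms late, so a mixed collection holds embryos both before and after its cells differentiate.

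Libraries from RNA immunoprecipitation (RIP-seq) were set against libraries of the starting extract, to examine which transcripts, su(Hw) among them, accompany the RNA-binding protein Isha. The Isha RIP group was 3 libraries of RNA recovered with a rabbit antiserum to Isha, bound to Protein A beads, after the extract had been cleared with preimmune serum. The input group was 3 libraries with no antibody. Both groups came from nuclear extract of wild-type Oregon R embryos aged 0 to 24 h, of mixed stages, with no allele or treatment in either. No control immunoprecipitation was analysed here, so a ratio to input does not separate the antiserum from the beads. The labels do not say that replicates came from separate collections, and the spread between them may be technical.

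Total counts were 8386414 to 14342543 in RIP libraries and 29344529 to 31680173 in input libraries. A single count was thus worth 0.0692 to 0.118 CPM (counts scaled to the library total and its TMM factor) in RIP and 0.0318 to 0.0343 CPM in input. The transcripts of su(Hw) and of Isha itself were both higher in RIP by edgeR's quasi-likelihood test with Benjamini-Hochberg adjustment over 11764 genes. The su(Hw) transcript averaged 105.8 ± 1.49 CPM in RIP and 73.4 ± 4.23 CPM in input (SD, n = 3 each; log2 fold change 0.53, adjusted p = 4.65e-06). That of Isha averaged 328 CPM in RIP and 256 CPM in input (log2 fold change 0.36, SE 0.0496, adjusted p = 1.59e-06). Exons of su(Hw) overlap another gene, whose reads may be mixed with its own. At an adjusted p under 0.05, 3176 genes rose in RIP (27% of those tested) and 3573 fell (30.4%), with a median log2 fold change of -0.05. The 75th percentile of all tested genes was 0.52, near the value of su(Hw) and above that of Isha.

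Of the 17 gut marker genes listed for a check of the tissue, all 17 had counts and were tested. GATAe, a transcription factor of the endoderm picked after its values were seen, had 65.5 to 81.2 CPM in RIP and 68.6 to 74.0 CPM in input. The summed level of the 17 was 998 to 1073 CPM in RIP libraries and 787 to 807 CPM in input libraries. The higher sum in RIP lay largely in srp (mean 306 CPM in RIP and 124 CPM in input) and GATAd (144 CPM in RIP and 54.7 CPM in input). Whether these markers are confined to the gut was not tested, so their sum is no measure of gut RNA. Peritrophin-A, byn, Vha100-4 and Dh31 were lower in RIP. By edgeR 4 of the 17 rose, 4 fell and 9 were not called, against 27% and 30.4% of all tested genes that rose and fell. Their median log2 fold change was 0.03. For a level in either group of such bulk extracts, fewer gut cells and less RNA per gut cell cannot be told apart. Markers of other sources were counted in the same way. Eggshell genes summed to 0.138 to 1.81 CPM in RIP and 0.275 to 1.17 CPM in input, with 3 of 10 at 0 counts in every library. Larval and adult genes summed to 16.7 to 28.6 CPM in RIP and 19.2 to 25.9 CPM in input, and 4 of 11 were at 0 in all RIP libraries against 3 in all input libraries. Salivary gland genes summed to 252 to 276 CPM in RIP and 149 to 173 CPM in input. The list was mixed: of 9 genes 6 were tested, and by edgeR 2 rose, 2 fell and 2 were not called. Of all tested genes 27% rose and 30.4% fell. The part of these other tissues in the Jonah values was not tested.

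The genes lie in tandem groups named for their position on the polytene chromosomes. On dm6, 5 of the 10 are on chromosome arm 3R, 4 on 3L and 1 on 2L. Jon99Ciii, Jon99Cii and Jon99Ci fill 3974 bases of 3R, from 29922216 to 29926189, with no other tested coding gene between them. Jon99Fii and Jon99Fi are divergently placed in 2880 bases of 3R, from 30487016 to 30489895. Jon65Aiv and Jon65Aiii belong to a row of 4 Jonah genes over 15289 bases of 3L, from 6039155 to 6054443. Jon25Biii is the leftmost of 3 Jonah genes in 5204 bases of 2L, from 4949941 to 4955144. Jon66Ci and Jon66Cii are neighbours in 2110 bases of 3L, from 8391540 to 8393649. Their summed exon lengths run over 827 to 1240 bases, with 7 genes in 1 exon block and 3 in 2 blocks, and no exon of theirs overlaps another gene.

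Before the values, 1 limit applies to every gene of the family. Neighbouring Jonah genes are close relatives, and the sources used here do not say how reads that match several places were counted. Counts could be split between near copies, so values for each tandem group summed are given with the single genes.

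The protease transcripts as a group were a small share of both kinds of library and a smaller one in RIP. The 10 genes summed to 187.5, 215.4 and 191.3 CPM in the 3 RIP libraries, against 441, 456 and 457 CPM in the 3 input libraries. That is a mean of 0.0200% of RIP counts and 0.0447% of input counts, 2.28-fold lower in RIP, with groups far apart. Much of the RIP sum came from 1 gene: Jon65Aiv made up 50.1%, 53.4% and 51.8% of it, against 24.2%, 20.2% and 21.6% of the input sum. Without Jon65Aiv the sum was 95.4 ± 4.39 CPM in RIP and 352 ± 15.6 CPM in input (SD, n = 3 each), 3.69-fold lower in RIP.

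Of the 10 genes, 9 passed the filter on low counts and entered the fit, and Jon66Cii did not. In 8 of those 9, every RIP library was below every input library, an arrangement found in 34% of all 11764 tested genes; every RIP library above every input library was found in 30% of them and in none of the 9. The fitted fold was at least 2 lower in RIP for 7 of the 9 genes (15.5% of all tested genes) and at least 4 lower for 4 (2.85%). The median log2 fold change of the 9 was -1.55. These shares describe a list made with the values known.

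**Figure D1:**
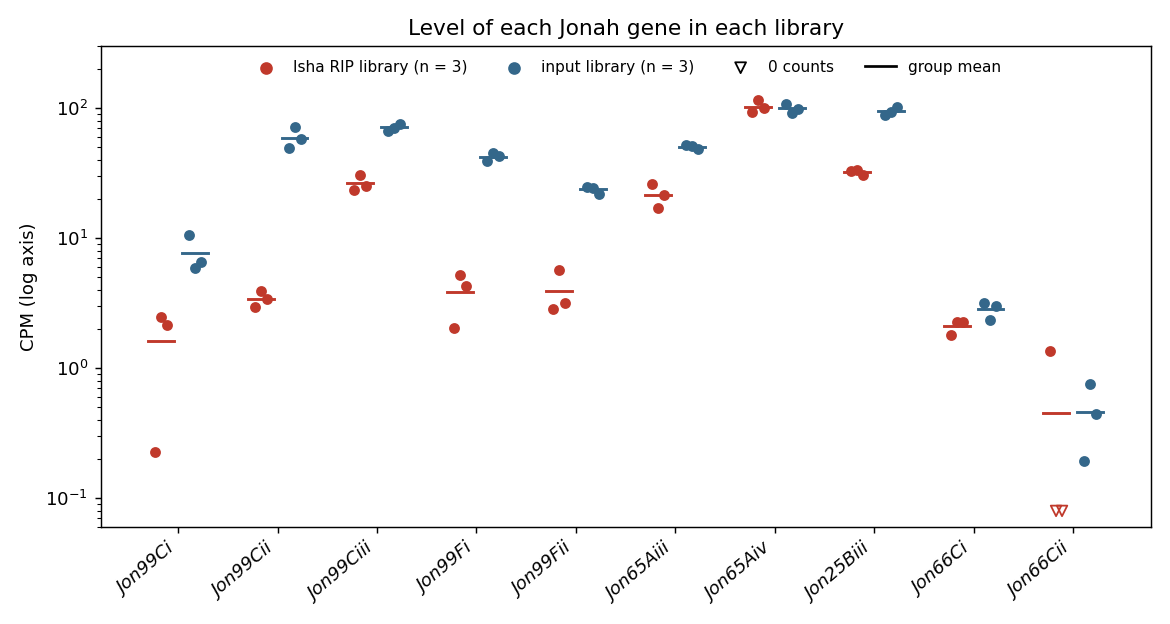
Level of the 10 Jonah genes in CPM (log axis) in each Isha RIP library (left of each pair) and each input library (right), with a bar at the group mean and open triangles for libraries with 0 counts. Jon99Cii lies at 2.95 to 3.90 CPM in RIP and 49.0 to 71.4 CPM in input, while the groups overlap for Jon65Aiv and Jon66Cii.

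Jon99Cii (FBgn0003356, 29923754 to 29924615 on the minus strand of 3R) was the member lowest in RIP relative to input. It had 2.95, 3.90 and 3.39 CPM in the RIP libraries, from 26, 33 and 49 counts, against 49.0, 71.4 and 57.4 CPM in the input libraries, from 1521, 2080 and 1808 counts. The groups lay far apart, and the input libraries differed among themselves by more than for most genes, with a coefficient of variation of 19.1% where the 95th percentile of genes at 10 CPM or more was 18.4%. The mean was 17.4-fold lower in RIP, with a fitted log2 fold change of -4.12 (SE 0.185), the 33rd lowest of all 11764.

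Its neighbours in the 99C row encode proteases of the same kind and were nearer to their input levels. Jon99Ciii (FBgn0003357, 29922216 to 29923455, plus strand) had 23.3, 30.4 and 25.2 CPM in RIP, against 66.9, 70.2 and 76.0 CPM in input. The groups did not overlap, and the mean was 2.70-fold lower in RIP (log2 fold change -1.44, SE 0.117). Per kilobase of exon, its input libraries (54.0 to 61.3 CPM per kilobase) overlapped those of Jon99Cii (56.8 to 82.8), while in RIP it had 18.8 to 24.5 CPM per kilobase, where Jon99Cii had 3.42 to 4.53. Jon99Ci (FBgn0003358, 29925226 to 29926189, minus strand, with an intron of 57 bases) was the scarce gene of the row. It had 0.227, 2.48 and 2.15 CPM in RIP, from 2, 21 and 31 counts, against 10.6, 5.90 and 6.54 CPM in input. All RIP libraries were below all input libraries, but the first RIP library was far below the other two, and the coefficient of variation in RIP was 75.2%. The mean was 4.74-fold lower in RIP (log2 fold change -2.21, SE 0.462), and leaving out single libraries moved that log2 value between -2.54 and -1.74. Summed over the row, the 99C genes had 26.5, 36.8 and 30.7 CPM in RIP and 126.5, 147.5 and 139.9 CPM in input (log2 fold change -2.14, SE 0.104).

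The divergent 99F pair was low in RIP in both genes. Jon99Fi (FBgn0039778, 30488963 to 30489895, plus strand) had 2.04, 5.20 and 4.29 CPM in RIP, from 18, 44 and 62 counts, against 38.9, 44.9 and 42.5 CPM in input. The RIP libraries were well below the input libraries, by 11.0-fold in the mean (log2 fold change -3.44, SE 0.214), the 61st lowest of all tested genes. Jon99Fii (FBgn0039777, 30487016 to 30487928, minus strand) had 2.83, 5.68 and 3.18 CPM in RIP, against 24.9, 24.5 and 21.8 CPM in input. It too showed no overlap, with a mean 6.08-fold lower in RIP (log2 fold change -2.63, SE 0.238). Both genes were highest in the second RIP library, and their coefficients of variation in RIP were 42.4% for Jon99Fi and 39.8% for Jon99Fii. Over the 7742 tested genes with at least 10 CPM in input, the median in RIP was 9.14% and the 95th percentile 30.9%. Those genes were chosen by input level and not matched in RIP counts, so counting error differs between them and this pair. As a pair they summed to 4.87, 10.9 and 7.48 CPM in RIP and 63.8, 69.4 and 64.3 CPM in input (log2 fold change -3.10, SE 0.176).

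The 65A row held the gene that stood apart from the rest. Jon65Aiv (FBgn0250815, 6039155 to 6040135 on the plus strand of 3L, with an intron of 77 bases) had 93.9, 115.0 and 99.1 CPM in RIP, against 106.8, 92.3 and 98.9 CPM in input. These groups overlapped, the mean was 1.03-fold higher in RIP, and the log2 fold change was 0.05 (SE 0.0851), at percentile 54.4 of all tested genes. With 829 to 1432 counts per RIP library it was also the deepest measured member there. Jon65Aiii (FBgn0035665, 6050757 to 6051690, plus strand, with an intron of 59 bases) is transcribed in the same direction further along the row. It had 26.1, 16.9 and 21.3 CPM in RIP, against 52.2, 50.7 and 48.5 CPM in input. The groups were apart, with a mean 2.36-fold lower in RIP (log2 fold change -1.24, SE 0.139). The 4 Jonah genes of the row summed to 124.6, 137.2 and 122.2 CPM in RIP and 169.8, 156.7 and 161.4 CPM in input, a log2 fold change of -0.35 (SE 0.0683) that Jon65Aiv weighs on most.

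Jon25Biii (FBgn0031653, 4949941 to 4950767 on the minus strand of 2L) was the member with the tightest RIP values. It had 33.0, 33.6 and 30.4 CPM in RIP, against 88.5, 93.0 and 101.9 CPM in input, without overlap. The mean was 2.92-fold lower in RIP (log2 fold change -1.55, SE 0.0987). Summed, the 3 genes of its row had 61.9, 59.4 and 62.2 CPM in RIP and 223, 202 and 221 CPM in input (log2 fold change -1.82, SE 0.0712).

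The 66C pair was near the depth limit. Jon66Ci (FBgn0035886, 8391540 to 8392377 on the plus strand of 3L) had 1.81, 2.25 and 2.28 CPM in RIP, from 16, 19 and 33 counts, against 3.19, 2.33 and 2.99 CPM in input. The groups were apart by a margin of under 1 count in RIP, the mean was 1.34-fold lower in RIP, and the log2 fold change of -0.42 was smaller than its SE of 0.483. Jon66Cii (FBgn0035887, 8392820 to 8393649, minus strand) had 12, 0 and 0 counts in RIP and 6, 22 and 14 counts in input. That is 1.36, 0 and 0 CPM in RIP and 0.193, 0.755 and 0.445 CPM in input; the groups overlapped, and a level of 0 counts allows up to 0.355 CPM in the second RIP library and 0.208 CPM in the third, counting error only.

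**Figure D2:**
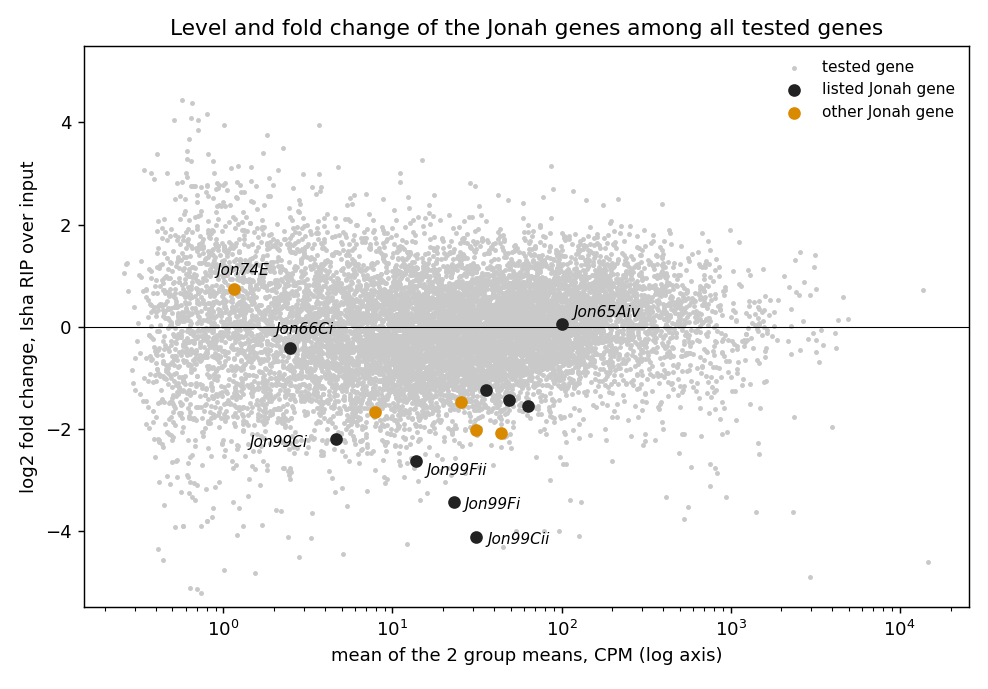
Fitted log2 fold change of Isha RIP over input against the mean of both group means in CPM (log axis), with all tested genes as small grey points, the 9 tested members in black and the other Jonah genes with counts in RIP in orange. Jon99Cii and Jon99Fi lie at -4.12 and -3.44, below nearly all genes of similar level, and Jon65Aiv lies at 0.05.

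Levels between genes were compared per kilobase of exon, on the scale of CPM per kilobase. In RIP the order was Jon65Aiv (113.6 ± 12.1), Jon25Biii (39.1 ± 2.05), Jon65Aiii (24.5 ± 5.23) and Jon99Ciii (21.2 ± 2.95), then Jon99Fii (4.27 ± 1.70), Jon99Fi (4.12 ± 1.75), Jon99Cii (3.96 ± 0.555), Jon66Ci (2.52 ± 0.313), Jon99Ci (1.78 ± 1.34) and Jon66Cii (0.546 ± 0.946) (SD, n = 3 each). The ranges of neighbours overlapped between Jon65Aiii and Jon99Ciii, among Jon99Fii, Jon99Fi and Jon99Cii, and among the last 3 genes. A gap without overlap, between 18.8 for the lowest Jon99Ciii library and 6.22 for the highest Jon99Fii library, lay between the 4 higher and 6 lower genes. Ranges were also apart after Jon65Aiv, after Jon25Biii and after Jon99Cii. In input the order was Jon25Biii (114.3 ± 8.26), Jon65Aiv (109.9 ± 8.01), Jon99Cii (68.8 ± 13.1), Jon65Aiii (57.7 ± 2.14), Jon99Ciii (57.3 ± 3.70), Jon99Fi (45.1 ± 3.24), Jon99Fii (26.0 ± 1.82), Jon99Ci (8.46 ± 2.79), Jon66Ci (3.38 ± 0.533) and Jon66Cii (0.559 ± 0.339). There Jon25Biii and Jon65Aiv overlapped, as did Jon99Cii with Jon65Aiii and Jon65Aiii with Jon99Ciii. Jon99Cii was thus the gene in place 7 of the RIP order and place 3 of the input order.

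**Figure D3:**
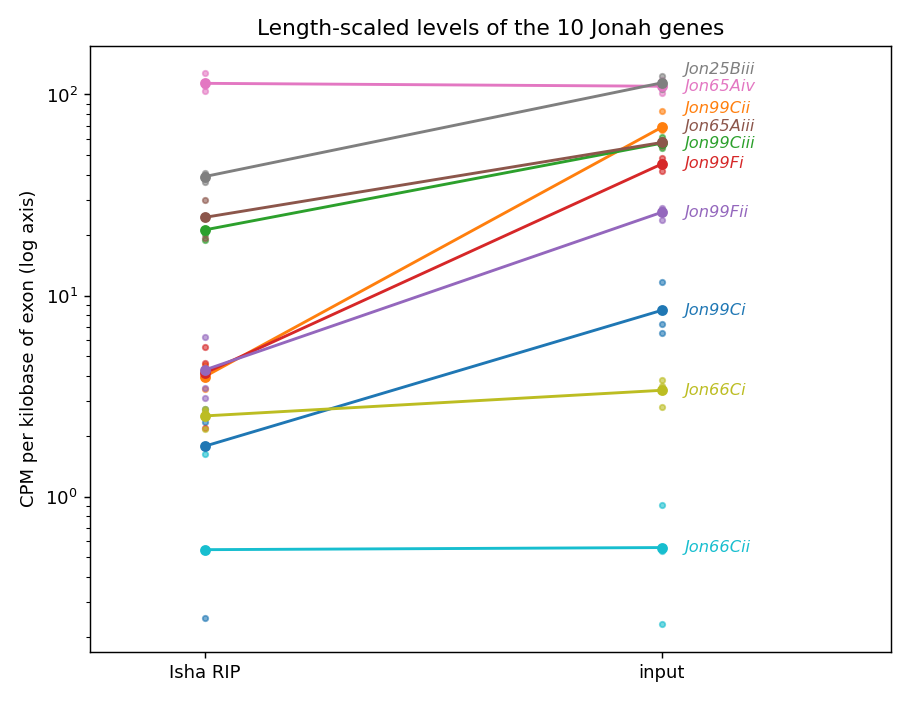
Level of the 10 Jonah genes in CPM per kilobase of exon (log axis) in Isha RIP (left) and input (right), with large points for group means, small points for libraries above 0, and a line for each gene. The lines of Jon99Cii, Jon99Fi and Jon99Fii meet near 4 in RIP, at 3.96, 4.12 and 4.27, while their input means are 68.8, 45.1 and 26.0.

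The members share a short transcript, and coding genes of such length were described for comparison. Among the 1810 tested protein-coding genes with 800 to 1300 exon bases, 647 fell (35.7%, against 30.4% of all tested genes) and 312 rose by edgeR, with a median log2 fold change of -0.34 and a 5th percentile of -2.05. The difference from other lengths was not tested. Those in 1 exon block had a median of -0.42 (373 genes) and those in 2 blocks of -0.37 (574 genes). Jon99Cii, Jon99Fi, Jon99Fii and Jon99Ci lay below that 5th percentile. With an offset for gene length in the fit the members' median was -1.41.

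The other 6 Jonah genes were not on the list, and their fold changes were tested with all genes. Jon65Aii passed the filter on low counts only through its input libraries and is left out of the count here. Of the other 5, 4 fell in RIP by edgeR's quasi-likelihood test and 0 rose, against 30.4% and 27% of all tested genes, and their median log2 fold change was -1.66. With near copies summed, where each gene takes the value of its row, the median over the 6, Jon65Aii included, was -0.92. The 65A and 25B row values contain counts of the listed members, Jon65Aiv above all in 65A. That median is therefore no separate measure of the other Jonah genes. They share libraries, family and tandem rows with the 10, and earlier results of these data were known when they were listed.

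Jon25Bi had 17.1, 13.7 and 18.6 CPM in RIP, against 80.3, 64.0 and 67.9 CPM in input. It sits in the row of Jon25Biii and fell in RIP, with a log2 fold change of -2.09 (SE 0.133, adjusted p = 5.11e-12). Jon25Bii, between them, averaged 12.3 ± 0.724 CPM in RIP and 50.2 ± 4.52 CPM in input, a log2 fold change of -2.02 (adjusted p = 1.72e-11). Jon44E, a lone Jonah gene on 2R, averaged 13.4 ± 2.37 CPM in RIP and 37.7 ± 7.39 CPM in input (log2 fold change -1.48, adjusted p = 9.80e-08). Exons of CG8586 lie opposite its own, so reads of both genes may be mixed if strand was ignored in the counting.

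Of the remaining pair in the 65A row, Jon65Ai had 4.65, 5.32 and 1.73 CPM in RIP and 10.2, 12.9 and 12.8 CPM in input (log2 fold change -1.66, adjusted p = 0.000101). Jon65Aii had 0 counts in all 3 RIP libraries, against 19, 23 and 39 counts in input. With 3 counts per RIP library as a floor, which averages 0.301 CPM, it was at least 2.93-fold lower in RIP than its input mean of 0.880 CPM. No test is given, since it entered the fit through the group in which it is higher, and it was not tested with a stricter count filter, with input thinned to RIP depth or without input replicate 2 or 3. All 4 genes of the row were thus measured, and Jon65Aiv was the member of the row whose groups overlapped. Jon74E, on its own on 3L, had 0.793, 0.591 and 2.91 CPM in RIP and 1.06, 0.446 and 1.14 CPM in input. It was not called (log2 fold change 0.73, SE 0.837, adjusted p = 0.482), and that value was -0.36 without RIP replicate 3.

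**Figure D4:**
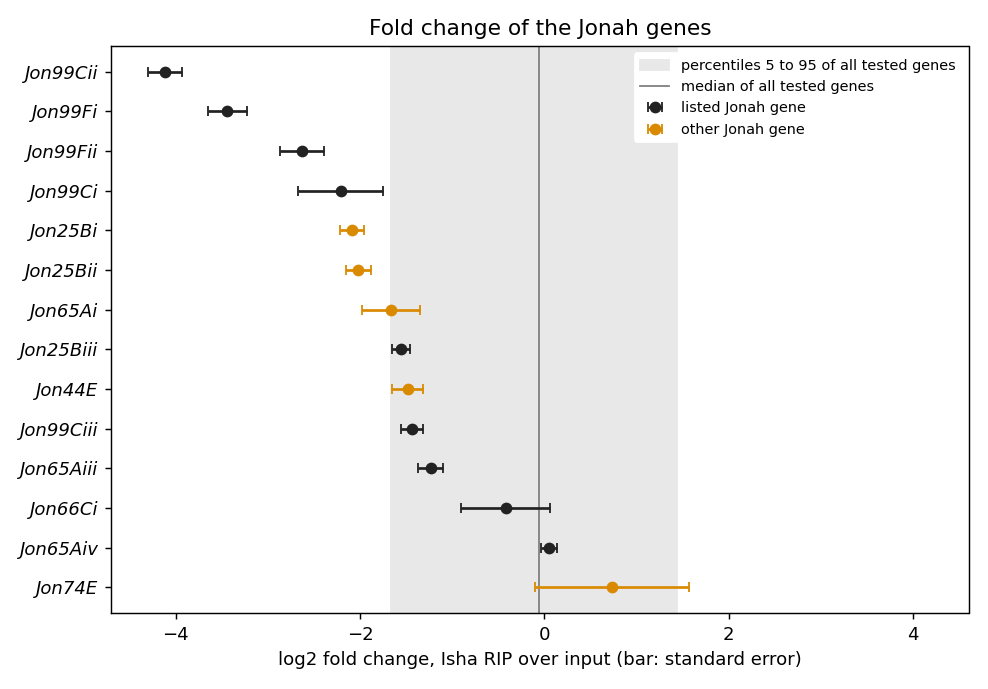
Fitted log2 fold change of Isha RIP over input with its standard error for the 9 tested members (black) and 5 of the other Jonah genes (orange), leaving out Jon65Aii, which had 0 counts in RIP. The grey band spans percentiles 5 to 95 of all tested genes, -1.66 to 1.44, and the grey line is their median of -0.05; 4 members lie clear of the band.

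Genes beside the rows were looked at next, in a list of the 3 nearest tested coding genes on each side of each row, made after the values were seen. Of these 30 flanking genes, which include the proteases yip7 and CG10472, 6 rose and 13 fell, against 27% and 30.4% of all tested genes, with a median log2 fold change of -0.55. Of the 10 nearest, 3 rose, 5 fell and 2 were not called. To the right of the Jon65A row, 693 bases away, tant, which encodes a chromatin-associated protein, averaged 94.0 ± 5.86 CPM in RIP and 26.1 ± 3.24 CPM in input (log2 fold change 1.85, adjusted p = 8.06e-13). To its left lies yip7, itself a gut protease. Beside Jon25Bi, 365 bases away, Marcal1, an annealing helicase, rose with a log2 fold change of 0.99 (adjusted p = 0.000345). On the other side of that row, 157 bases from Jon25Biii, jet fell with a log2 fold change of -0.87 (adjusted p = 0.00342), and its exons overlap betaggt-I. Next to Jon66Ci, 369 bases away, ImpE1, a gene induced by ecdysone in imaginal discs, averaged 861 ± 54.8 CPM in RIP and 511 ± 3.56 CPM in input (log2 fold change 0.75, adjusted p = 1.51e-12). On the other side of the 66C pair CG7120 fell (log2 fold change -0.59, adjusted p = 0.000472), with exons that overlap other genes. Around the 99C row neither Capa (-1.58, SE 0.739) nor CG15522 (-1.34, SE 0.957) was called, both at low levels. Capa averaged 0.605 CPM in RIP and 1.88 CPM in input. CG15522, whose exons overlap alpha-Man-Ic, averaged 0.415 CPM in RIP and 1.14 CPM in input. For both genes every RIP library was below every input library. The 99F pair is flanked by prolyl hydroxylase genes, of which PH4alphaEFB fell (log2 fold change -0.77, adjusted p = 6.97e-11) and PH4alphaSG2 fell (log2 fold change -0.54, adjusted p = 0.0325, with exons that overlap PH4alphaMP). The difference between the flanking genes and the Jonah genes was not tested.

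The other serine proteases of the gut, trypsins and related enzymes that also cut dietary protein, were lower in RIP in most members. Of 15 listed, 11 were tested, 8 fell and 0 rose, where 30.4% of all tested genes fell and 27% rose, with a median log2 fold change of -1.50. The trypsin epsilonTry averaged 21.8 ± 4.44 CPM in RIP and 60.8 ± 3.46 CPM in input (log2 fold change -1.50, adjusted p = 1.91e-09). For yip7 the means were 28.7 ± 4.22 CPM in RIP and 77.9 ± 6.17 CPM in input (log2 fold change -1.45, adjusted p = 2.44e-10). The other 2 named by the rule were zetaTry (log2 fold change -1.35) and betaTry (log2 fold change -2.64).

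The list of digestive genes that are not proteases holds enzymes and binding proteins of the gut lumen and also the mannosidases LManI and LManII, which are named as lysosomal. Of 28 such genes 26 were tested, 16 fell and 1 rose, where 30.4% of all tested genes fell and 27% rose, with a median log2 fold change of -1.04. The maltases Mal-A3 (log2 fold change -1.57) and Mal-A5 (-0.89), the lysozyme LysS (-1.99) and the sterol-binding protein gene Npc2g (-2.86) fell. The gene that rose was LManI (log2 fold change 0.32, adjusted p = 0.0279). That call was lost without RIP replicate 1 and without input replicate 1 or 3, at adjusted p = 0.0714, 0.168 and 0.0706.

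Of the 17 gut markers, which are not digestive enzymes, 4 rose and 4 fell, against 27% and 30.4% of all tested genes, with a median log2 fold change of 0.03. The GATA factors srp and GATAd rose, with log2 fold changes of 1.30 and 1.40, and exons of srp overlap lncRNA:CR44133. Peritrophin-A, of the matrix lining the gut, averaged 43.9 ± 5.16 CPM in RIP and 72.8 ± 4.92 CPM in input (log2 fold change -0.74). The hindgut factor byn (-0.60), the proton pump subunit Vha100-4 (-0.53, with exons that overlap cona) and the gut hormone gene Dh31 (-0.83) fell too. Dh31 lost its call in 5 alternatives, without RIP replicate 1 or 3, without input replicate 1 or 2 and with the length offset, at adjusted p = 0.0665 to 0.0829.

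A further list held serine proteases that act outside the gut, in dorsal-ventral patterning, immunity and epithelia. Of 17 listed, 16 had a matching name and were tested, 7 fell and 4 rose, where 30.4% of all tested genes fell and 27% rose, with a median log2 fold change of -0.47. Those of smallest adjusted p among the 7 were ea (log2 fold change -1.68), which cleaves the ligand of Toll, grass (-1.73) and SPE (-1.60), which act upstream of Toll in immunity, and Hayan (-0.85), of melanization. Other proteases of such extracellular cascades were not called, gd at 0.33, ndl at 0.48, snk at -1.44 and Sp7 at -0.46. The membrane-anchored proteases Np (0.78) and Corin (0.67) rose, and Corin, whose exons overlap Rpe, was not called with the length offset (adjusted p = 0.0865). Exons of SPE and Hayan overlap other genes as well. A list of 235 genes with a numbered serine protease name, added after the values were seen, holds 15 of the gut list and 16 of the non-gut list above. Of the 204 in neither list, 110 were tested, of which 37 fell and 10 rose, with a median of -0.49. Of all tested genes 30.4% fell and 27% rose. The 110 include 2 genes with 0 counts in all RIP libraries, which, like Jon65Aii, entered the fit only through input. The differences between these lists were not tested.

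**Figure D5:**
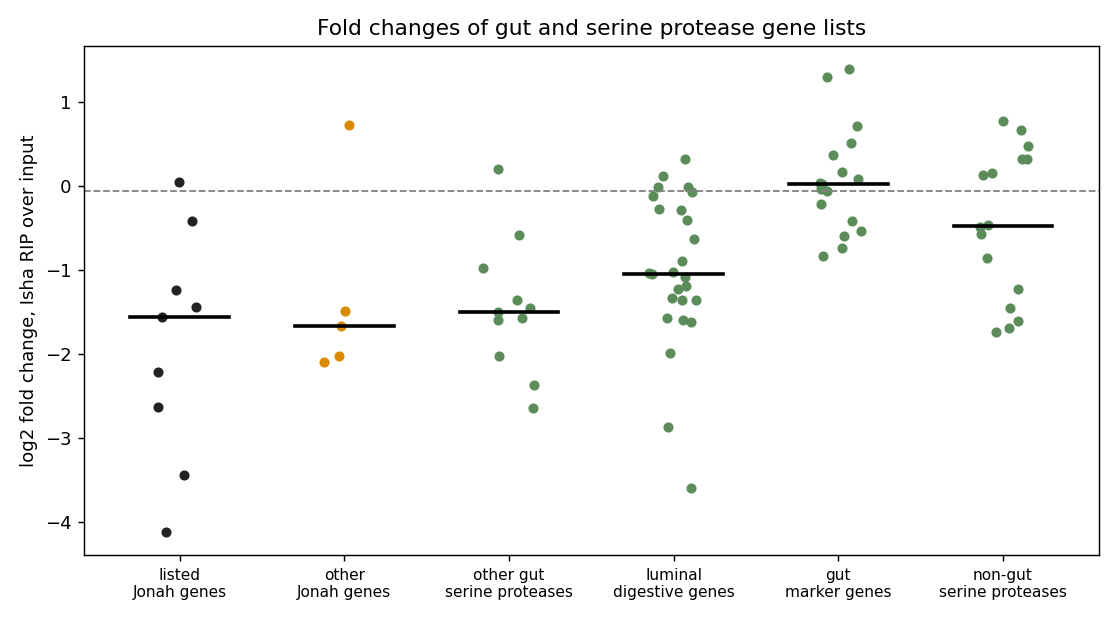
Fitted log2 fold change of Isha RIP over input for each tested gene (points) of the listed Jonah genes and 5 comparison lists, with a bar at the list's median and a dashed line at the median of all tested genes. The medians run -1.55, -1.66, -1.50, -1.04, 0.03 and -0.47 left to right, and Jon65Aii, with 0 counts in RIP, is neither drawn nor counted in its list's median.

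The genes whose pattern over the 6 libraries was most like the mean of the 9 tested members were Sirt4, CG2931, Pgant35A, GAA1 and CG12177. Likeness was the Euclidean distance between log2 CPM values centred on each gene's mean, over tested protein-coding genes outside all lists. The distances were 0.136 for Sirt4, 0.183 for CG2931, 0.283 for Pgant35A, 0.295 for GAA1 and 0.316 for CG12177. The members' own distances to their mean were larger, 0.692 for Jon99Ciii to 2.66 for Jon99Cii. Sirt4, a mitochondrial sirtuin, averaged 5.69 ± 1.03 CPM in RIP and 22.0 ± 1.37 CPM in input, and its exons overlap asRNA:CR45520, as those of Pgant35A overlap asRNA:CR43463.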

How the data were processed

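Counts for 6 libraries (Isha RIP and input, 3 each, grouped by sample title) were read from 1 table in which the authors deposited raw read counts per gene, with summed exon length, in the layout of featureCounts per the file headers. Per the submitters' processing notes, the build was dm6 and the tools included HISAT2 2.2.1, cutadapt 2.9, featureCounts of Subread 2.0.0, Picard 2.22.2, R 4.1.0 and DESeq2 1.32.0. The sources used here do not give the annotation version, the strand setting or the handling of duplicate and multiply matching reads, which could move counts between near copies and overlapping genes. Symbols came from RefSeq genes of the same assembly (Release 6 plus ISO1 MT), by coordinates for 17170 genes and by synonym for 16; 340 sharing coordinates and 86 unmatched kept their identifiers, and Tequila found no match by name.

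Genes were filtered with filterByExpr (minimum count 10; 11764 left), scaled by TMM (factors 0.987 to 1.01) and tested with edgeR 4.0.16 (quasi-likelihood F-test, group as the only term, 2-sided, Benjamini-Hochberg over all tested genes) in R 4.3.3, with limma 3.58.1 and DESeq2 1.42.0 for alternatives. The fit was tested on simulated data. SE was derived from the log2 fold change and its F statistic (absolute value divided by root F), and the biological coefficient of variation was 0.152. Replicate libraries of a group differed by more than counting noise (chi-square per degree of freedom 5.76 to 14.0), so no pair was merged as a repeated deposit; this does not show that they came from separate extracts. Input was on average 2.94 times as deep as RIP. Floors of 3 counts cover counting error only, since reads without molecular identifiers are not independent molecules.

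The Jonah genes and all comparison lists were chosen with earlier results of these data known. Named were the 10 listed and 6 other Jonah genes; in each of 4 comparison lists the 4 called genes of smallest adjusted p in the direction with more calls and the 2 in the other direction; su(Hw) and Isha; and the 5 genes most like the members. The flanking genes named were chosen after their values were seen, as were GATAe, LManII, gd, ndl, snk and Sp7. The labels do not say that a replicate number marks a shared extract, so the numbers were not taken as pairs. Same-numbered RIP and input libraries did not deviate together (r = -0.0125, -0.0540 and -0.0116), which cannot exclude shared extracts.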

Additional observations from a re-analysis of the deposited data

How the results depend on the processing

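The median log2 fold change of the tested Jonah genes was -1.55, and it was -1.50 with no count filter (10 genes, Jon66Cii included), -1.41 with the gene length offset, -1.82 with near copies summed (5 units) and -1.88 without Jon65Aiv, an alternative chosen after seeing the data. Leaving out 1 library at a time gave -1.66 to -1.44. Jon66Cii entered these medians (10 genes) except without input replicate 2 (9 genes), so the gene set changed with the libraries. Over all genes, leaving out those with overlapping exons gave 2053 enriched and 2343 depleted, because fewer genes were tested, and 6 called of 9 tested non-gut serine proteases (2 rose, 4 fell). None of the named genes that were called changed direction under the alternatives tried; Jon74E, not called, did so without RIP replicate 3 (-0.36). With near copies summed, Jon65Aiv took the value of its row, -0.35; under all other alternatives it lay between -0.04 and 0.21. Jon66Ci was -0.19 with input thinned to RIP depth. Across alternatives other than summing, Jon99Cii ranged over -4.24 to -3.96 and Jon99Fi over -3.65 to -3.18. The replicate block, which pairs libraries by number, gave 3065 enriched and 3520 depleted genes and a median of -1.55 for the members, and changed no call of a named gene. Few RIP counts limit Jon99Ci, Jon66Ci, Jon66Cii, Jon65Aii and Jon74E, and the lack of a control immunoprecipitation limits every ratio.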
